A study of Rattus norvegicus with 2 samples.

Results

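Vesicle traffic in mammalian cells is directed by small GTPases of the Rab family, each of which marks particular membranes, recruits effectors in its GTP-bound form and is released from membranes by a dissociation inhibitor. Fusion is carried out by SNARE proteins: vesicle-borne VAMPs pair with syntaxins and SNAP-25-type proteins on the target membrane. Synaptotagmins and the related synaptotagmin-like proteins link these machines to calcium and to Rab27. In lung, alveolar type 2 cells use such machinery to release surfactant from lamellar bodies, airway cells use it to secrete mucus and secretoglobins, and blood and immune cells use it to release granules.

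The members examined here were 105 genes, found among 15611 genes of the deposited table by their annotation symbols: names starting with Rab and a digit, Vamp, Stx and a digit, Syt and a digit, Snap2 or Sytl. They were measured by 160 probes of 20417 named ones, 69 genes by a single probe and 36 by several, with up to 6 probes for a gene, and probes of a gene were averaged. They comprised 55 Rab GTPases, 7 regulators and effectors named after Rabs, 23 SNAREs, 16 synaptotagmins and 4 synaptotagmin-like genes. The samples were 2 lung samples, replicates 1 and 2, of untreated rat cells taken without culture, each hybridised in Cy3 on an Agilent two-colour array. The other channel, in Cy5, held 1 control RNA called mix1, a mixture of rat bone marrow cells, cultured in αDMEM with heat-inactivated serum, and rat primary ear fibroblasts, cultured in DMEM with serum; the labels do not state their shares in the mixture. Strain, age and sex of the animals are not given in the labels used here, nor is it said whether the lung samples came from separate animals, so a p-value here reflects only how far these samples differed, possibly for technical reasons. Mix1 is 1 RNA whose own spread is not measured, and no array had its dyes swapped, so a dye effect and a difference between the RNAs cannot be told apart.

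All values are log2 ratios taken as lung over mix1, so that 1 is a 2-fold difference. Pairs of values are given for lung replicates 1 and 2 in that order, and ± stands for the SD between them (n = 2). That direction is likely and not stated outright. It rests on the wording of the series and on 6 lung genes, Sftpc, Sftpa1, Sftpb, Sftpd, Scgb1a1 and Ager, whose ratios lay between 3.94 and 7.02 when read this way; with the sign turned every direction below would be the opposite. Marker lists were also read for the labelled tissue. They hold those same 6 genes and so in part restate what set the direction. The lists were chosen with earlier results of these data known, so they are a description and no independent check. Higher in lung were 8 of 8 alveolar type 2 markers, 7 of 7 club and ciliated markers, 5 of 5 measured alveolar type 1 markers and 8 of 8 endothelial markers. All 8 markers of cultured fibroblasts and marrow stroma were lower, between -7.44 and -2.22. Markers of blood cells were higher too, 8 of 8 for T and natural killer cells, 7 of 7 for neutrophils, 7 of 7 measured for platelets and 6 of 7 for mast cells, and those of macrophages were divided, 3 of 7 higher and 3 lower. The arrays ran closely together, with a median SD of a gene of 0.051. The table holds ratios and no intensities, so whether a gene stood above background in either RNA is not known, and the number of arrays limits the precision. In bulk RNA of this kind, fewer cells of a type and less RNA per cell cannot be told apart.

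The trafficking genes split evenly between the RNAs. Of the 105 members, limma's moderated test called 45 higher in lung and 45 lower (adjusted p under 0.05, Benjamini-Hochberg), and 15 did not pass. Among all genes tested, 32.9% were called higher and 49.7% lower, 82.7% in either direction, so a call of this kind is the usual outcome on these arrays. The members' share of higher calls was 42.9% and that of lower calls also 42.9%. By a fixed fold of 2 in both arrays, 18 members were higher and 16 lower, together 32.4% of the members, against 16.5% higher, 15.8% lower and 32.3% in either direction among all genes. The number of members that differed by this much was therefore at the level of any gene. The median ratio of the members was 0.02, against -0.22 for all genes, so the members' own median sat near 0, at -0.11 with the median probe of each gene in place of the mean, and above that of all genes. Subtracting the median gene of each array, a shift of 0.22 for all genes, gave members a median of 0.24 and 53 higher and 34 lower calls, against 40.4% higher, 37.9% lower and 78.3% in either direction among all genes. By the fixed fold it gave 21 members higher and 12 lower, against 19.5% and 11.6% of all genes and 31% in either direction. The shift turned the sign of 8 members' means, ended 11 lower calls and added 8 higher calls, and turned no call into its opposite. A test against a 2-fold change, limma's treat, called 17 members higher and 11 lower, against 25.8% of all genes in either direction. Members lay between -2.61 and 4.19, whereas all genes ran from -10.44 to 8.38, and 13 members were among the top 10% and 10 among the bottom 10% of genes. In both arrays 12 members were 4-fold or more higher in lung and 3 as much lower, against 8.46% and 5.12% of all genes.

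**Figure D1:**
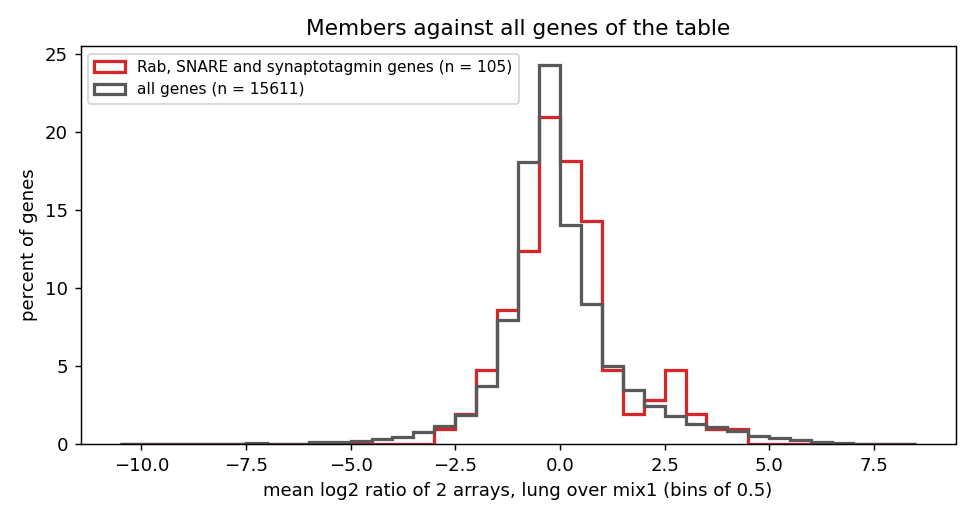
Percent of genes (vertical axis) by mean log2 ratio of lung over mix1 (horizontal axis, bins of 0.5) for the 105 members in red and all 15611 genes in grey. The members lie between -2.61 and 4.19, and their median of 0.02 lies above that of all genes, -0.22.

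The 3 highest and the 3 lowest members mark the ends of this range, and their promoters are shown for that reason. These are RefSeq windows on GRCr8 from 250 bases before to 50 after the annotated start, 300 bases each, and 83 of the 105 members matched an entry. Stx19 lies at chr11:13619186-13619485 on the plus strand, Sytl3 at chr1:49316043-49316342 (plus), Rab17 at chr9:99013983-99014282 (minus), Rab31 at chr9:112828043-112828342 (minus), Vamp1 at chr4:159698644-159698943 (plus) and Rab30 at chr1:156215887-156216186 (plus). Capitals mark matches, on either strand, to the GC box GGGCGG, the CCAAT box CCAAT, the TATA box TATAAA, the E-box CACGTG, the AP-1 motif TGANTCA, the cyclic AMP element TGACGTCA or the grainyhead motif AACCNGTT. The higher members come first, in the order of their ratios.
Stx19: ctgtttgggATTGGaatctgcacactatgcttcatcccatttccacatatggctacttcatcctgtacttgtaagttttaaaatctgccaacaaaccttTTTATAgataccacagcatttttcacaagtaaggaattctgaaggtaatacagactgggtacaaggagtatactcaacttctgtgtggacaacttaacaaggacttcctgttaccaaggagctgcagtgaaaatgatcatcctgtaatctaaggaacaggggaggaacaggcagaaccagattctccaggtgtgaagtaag
Sytl3: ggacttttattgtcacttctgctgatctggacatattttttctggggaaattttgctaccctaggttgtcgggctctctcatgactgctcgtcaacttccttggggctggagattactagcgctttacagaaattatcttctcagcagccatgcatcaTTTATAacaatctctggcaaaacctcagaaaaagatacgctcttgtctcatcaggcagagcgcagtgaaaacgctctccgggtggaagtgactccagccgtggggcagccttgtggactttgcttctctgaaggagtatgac
Rab17: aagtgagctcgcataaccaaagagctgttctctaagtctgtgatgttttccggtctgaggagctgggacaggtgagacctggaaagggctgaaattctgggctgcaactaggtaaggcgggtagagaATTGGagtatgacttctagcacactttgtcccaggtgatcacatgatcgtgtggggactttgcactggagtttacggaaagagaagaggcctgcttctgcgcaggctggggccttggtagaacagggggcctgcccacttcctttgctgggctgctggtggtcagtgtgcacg
Rab31: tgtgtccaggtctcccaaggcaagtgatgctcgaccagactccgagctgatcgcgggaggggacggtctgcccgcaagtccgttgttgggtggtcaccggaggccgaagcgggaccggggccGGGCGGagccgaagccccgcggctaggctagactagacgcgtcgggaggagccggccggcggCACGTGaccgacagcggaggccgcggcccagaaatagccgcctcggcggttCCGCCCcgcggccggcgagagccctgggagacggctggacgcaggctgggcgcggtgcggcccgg
Vamp1: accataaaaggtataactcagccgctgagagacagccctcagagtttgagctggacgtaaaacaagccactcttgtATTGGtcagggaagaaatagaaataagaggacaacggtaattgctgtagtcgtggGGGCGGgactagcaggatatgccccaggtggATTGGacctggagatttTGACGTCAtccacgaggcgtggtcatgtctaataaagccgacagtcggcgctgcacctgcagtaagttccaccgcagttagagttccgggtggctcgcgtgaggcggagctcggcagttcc
Rab30: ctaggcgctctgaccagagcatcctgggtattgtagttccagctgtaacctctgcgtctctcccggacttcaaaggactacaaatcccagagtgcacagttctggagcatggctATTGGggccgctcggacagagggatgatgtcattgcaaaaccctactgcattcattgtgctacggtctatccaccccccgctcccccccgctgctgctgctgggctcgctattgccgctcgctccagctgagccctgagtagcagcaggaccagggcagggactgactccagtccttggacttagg

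The windows of the higher genes were poorer in CpG. Stx19 had no CpG dinucleotide in the window and a G and C content of 41.0%, Sytl3 had 8 and 47.3%, and Rab17 had 7 and 54.0%, against 41 and 73.7% in Rab31, 17 and 53.3% in Vamp1 and 11 and 58.3% in Rab30. The same held for the larger sets as a description: the median was 11 CpG in the 16 windows of members at least 2-fold higher in both arrays, 20 in the 13 windows of those at least 2-fold lower and 21.5 in the 54 windows of the rest, against 17 in those of measured genes. The GC box was found in 7 of 16, 10 of 13 and 42 of 54 of these windows, which is 43.8%, 76.9% and 77.8%, against 51.3% of the 12891 windows of measured genes and 34.9% of all 27457 windows. TATAAA was found in 2 of the 16 higher, 1 of the 13 lower and none of the 54 other windows, and in 11.1% of those of measured genes and 14.3% of all. CCAAT was found in 36.1% of the members' windows, 38% of those of measured genes and 37.7% of all. The remaining motifs were found in at most 8 of the 83 windows each. CACGTG was found in 9.64% of these, 8.15% of the windows of measured genes and 6.65% of all windows. In that order the shares were 4.82%, 6.11% and 7.33% for TGANTCA and 3.61%, 2.53% and 1.91% for TGACGTCA. For AACCNGTT they were 3.61%, 1.68% and 1.97%. No test was made of these shares, no searched motif contains another, and a match is a description of letters in these windows.

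Secretory Rabs, which tether and dock granules at the plasma membrane, held 3 of the 18 members at least 2-fold higher in both arrays. That was 42.9% of this small group, against 16.5% of all genes. Of 7 measured, 4 were called higher (57.1%, against 32.9% of all genes), 1 lower and 2 did not pass, and at an adjusted p under 0.01 3 were higher. The median of 0.71 is the mean of Rab3a, which did not pass, and the group's median was 0.27 in replicate 1 and 1.14 in replicate 2. Rab27a, which docks lysosome-related granules and is lost in human Griscelli syndrome, had 2.79 and 2.72, a 6.74-fold difference (adjusted p 0.00117). Its relative Rab27b, a GTPase of platelet and exocrine granules, had 1.55 and 1.63, 3.01-fold. Rab3b, one of 4 Rab3 proteins of regulated exocytosis, had 1.96 and 1.93, 3.85-fold. Both arrays put these 3 genes at least 2-fold above mix1. Rab3d, the form on exocrine granules, had 0.25 and 0.31 and was called higher (adjusted p 0.0147), with its 2 probes on opposite sides of 0, at -0.45 and 1.01. Rab3a, the form abundant in neurons, had 0.27 and 1.14 and did not pass (adjusted p 0.133). Rab3c had -0.15 and -0.29 and also did not pass (adjusted p 0.0533), while Rab26 was lower at -0.67 and -0.66 (adjusted p 0.00276). The Rab3 forms thus spread from near the median gene to 3.85-fold higher, with Rab3b alone among them past 2-fold in both arrays.

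Rabs of recycling endosomes and of transport to the cell surface held both strongly higher and strongly lower members. Of 13, 5 were higher (38.5%, against 32.9% of all genes), 7 lower (53.8%, against 49.7%) and 1 did not pass, with a median of -0.20. Relative to the median gene 6 were higher and 6 lower. The 2 high members are known for polarized epithelium. Rab17, a Rab of apical recycling and transcytosis, had 3.35 and 3.09, or 9.33-fold (adjusted p 0.00172). Rab25, the epithelial member of the Rab11 subfamily, had 2.74 and 2.95, or 7.19-fold (adjusted p 0.00163). Both lay more than 2 log2 units above the next gene called in this group, Rab14 at 0.39 ± 0.0083. The epithelial markers given above were also higher in lung, and their part in the ratios of Rab17, Rab25 and the syntaxin Stx19 was not tested. At the other end, Rab4b, a Rab of fast recycling, had -1.64 and -1.64, and Rab13, which acts in delivery to tight junctions, had -1.38 and -1.38. Both arrays gave these lower genes almost the same value. The other called members were small differences: Rab8a and Rab8b, which act in surface and ciliary delivery, lay at 0.21 and 0.17, and the lower Rab10, Rab11a, Rab4a, Rab11b and Rab35 between -0.56 and -0.20. The call for Rab10 was lost on centring, where its sign turned (0.02), and its 4 probes ran from -1.13 to 0.91. Rab15, an endosomal Rab, had 2.36 and 0.54, the widest gap between the arrays of any higher member, and did not pass (adjusted p 0.136).

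Early endosome Rabs had small ratios apart from Rab31 and Rab22a. Of 7, 2 were higher (28.6%, against 32.9% of all genes), 4 lower (57.1%, against 49.7%) and 1 did not pass, and relative to the median gene 2 were lower. Rab31, which acts between the trans-Golgi network and endosomes, had -2.45 and -2.41, 5.4-fold lower in lung (adjusted p 0.00117), and its 2 probes lay at -2.77 and -2.10. Its close relative Rab22a had -1.01 and -0.99. Only 3.7% of genes lay below Rab31, which was more than 1 log2 unit below Rab22a in each array. Rab5a, the main GTPase of early endosome fusion, was higher at 0.59 and 0.62, while Rab5b lay at -0.11 ± 0.11 and did not pass and Rab5c at -0.15 ± 0.01, a call that was lost on centring and whose 3 probes ran from -0.93 to 0.95. Rab20, known from phagosome maturation, lay at 0.28 ± 0.02 and Rab21, known from integrin traffic, at -0.20 ± 0.0076, a call also lost on centring.

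Late endosomal and lysosomal Rabs were higher for 5 of 7 (71.4%, against 32.9% of all genes) and lower for 2 (28.6%, against 49.7%), with a median of 0.44. By the fixed fold 1 was higher (14.3%, against 16.5% of all genes) and 2 lower (28.6%, against 15.8%). Rab29, a Golgi and lysosomal Rab that recruits the kinase LRRK2, led with 2.37 and 2.35, 5.12-fold (adjusted p 0.00117). Rab7a, required for fusion of late endosomes with lysosomes, had 0.96 and 0.94, just under 2-fold. Rab38, the gene mutated in the Ruby rat, in which pigment granules and type 2 cell lamellar bodies are abnormal, had 0.70 and 0.74, 1.64-fold higher (adjusted p 0.00271). Its paralogue Rab32, which shares the role in melanosome formation, had -1.42 and -1.31 and was lower. The subfamily of Rab29, Rab38 and Rab32 was therefore spread over both directions, with no overlap between the arrays' values of any of the 3. Rab9a, of the return route from endosomes to the Golgi, lay at 0.44 ± 0.0039 and Rab24 at 0.28 ± 0.02, and Rab9b was lower at -1.06 ± 0.03, with probes at -1.87 and -0.24.

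Rabs of the endoplasmic reticulum and Golgi ran close to all genes as a group, with the largest differences at both ends. Of 15, 5 were higher (33.3%), 8 lower (53.3%) and 2 did not pass, against 32.9% and 49.7% of all genes, with a median of -0.23, and on centring 7 were higher and 4 lower. The 3 lowest were Rab30, a Golgi Rab, with -2.43 and -2.80, 6.11-fold lower and the lowest ratio of all members (adjusted p 0.00314), Rab34 with -1.83 and -1.85, a Rab of lysosome positioning and ciliogenesis, and Rab2b with -1.13 and -1.17. Rab30 and Rab34 rest on 1 probe each, and Rab2b on 4 between -2.44 and -0.61. Rab19 and Rab6b stood apart as higher. Rab19 had 3.21 and 3.07, but its 2 probes lay at 4.90 and 1.38. Rab6b, a Golgi Rab enriched in brain, had 2.42 and 2.43, with probes at 3.55, 3.45 and 0.27. For both genes the arrays agreed to within 0.2 while the probes differed by over 3 log2 units, a difference that the SD between arrays leaves out. The housekeeping forms stayed close to 0: Rab1a and Rab1b, which act in transport from the endoplasmic reticulum, lay at 0.02 ± 0.0035 and -0.45 ± 0.03, Rab2a at -0.32 ± 0.04, Rab6a at -0.23 ± 0.02 and Rab18 at -0.40 ± 0.02. Rab33b lay at 0.59 ± 0.24, Rab36 at 0.40 ± 0.02, Rab33a at 0.29 ± 0.07, Rab43 at 0.11 ± 0.02 and Rab39a at -0.24 ± 0.09. In this group Rab43 and Rab1a did not pass, and the lower calls of Rab2a, Rab6a, Rab18 and Rab39a were lost on centring.

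Of the other 6 Rabs, 3 were higher and 3 lower (50% each, against 32.9% and 49.7% of all genes). Rab12, which acts between recycling endosomes and lysosomes, had 1.08 and 1.07 (adjusted p 0.00167), and Rab23, an inhibitor of hedgehog signalling, had -1.27 and -1.15 (adjusted p 0.00249). Rab40b and Rab40c, adaptors of ubiquitin ligases, lay on opposite sides at 0.97 ± 0.0025 and -0.88 ± 0.02, Rab28 at 0.21 ± 0.0086 and Rab44 at -0.64 ± 0.08. Among 7 regulators and effectors named after Rabs, 4 were higher (57.1%) and 3 lower (42.9%). Rab3ip, also called Rabin8, the exchange factor of Rab8, had 2.41 and 2.49, 5.47-fold (adjusted p 0.0012), whereas the related exchange factor Rab3il1 had -1.11 and -1.17. These relatives differed by 3.52 and 3.66 log2 units in the 2 arrays. Rab11fip3, a Rab11 effector of cytokinesis and recycling, had -1.71 and -1.67, the lowest of this group, while the effectors Rab11fip1 and Rab11fip2 lay at 0.89 ± 0.02 and 0.39 ± 0.17 and Rab11fip4 at -0.43 ± 0.07. Rab3gap2, a subunit of the complex that inactivates Rab3, lay at 0.73 ± 0.02, but its 2 probes lay at -0.48 and 1.94.

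**Figure D2:**
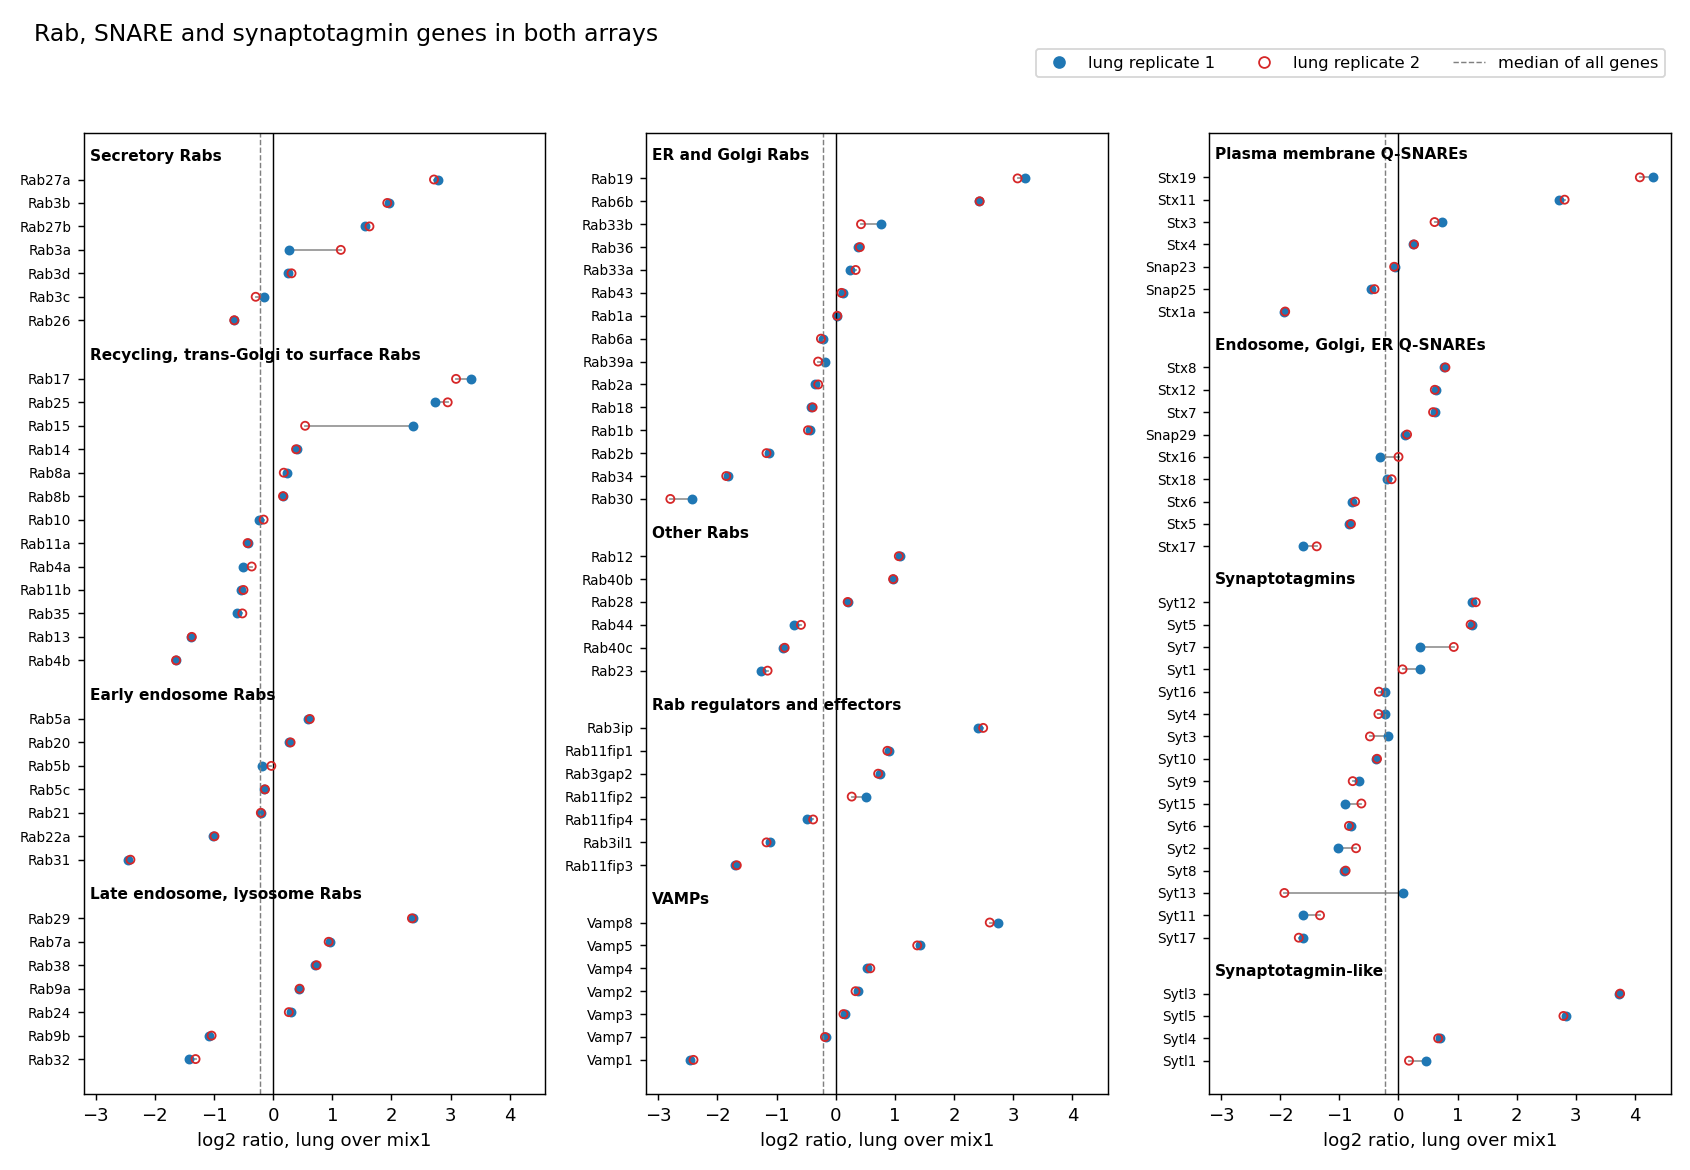
Log2 ratio of lung over mix1 (horizontal axis) for each of the 105 members in lung replicate 1 (filled) and replicate 2 (open), grouped by role and ordered by mean, with a dashed line at the median of all genes. Stx19 is highest with 4.30 and 4.08 and Rab30 lowest with -2.43 and -2.80, and only Rab15 and Syt13 have arrays over 2-fold apart.

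Among SNAREs, 12 of 23 were higher (52.2%, against 32.9% of all genes), 7 lower (30.4%, against 49.7%) and 4 did not pass, with a median of 0.14. By the fixed fold 4 were higher (17.4%, against 16.5% of all genes) and 3 lower (13%, against 15.8%), near the shares of all genes. The plasma membrane Q-SNAREs gave the highest member of all. Stx19, a syntaxin without a membrane anchor that is found in epithelial tissues, had 4.30 and 4.08, 18.3-fold (adjusted p 0.00128). Stx11, needed for granule release by cytotoxic lymphocytes and mutated in human haemophagocytic disease, had 2.72 and 2.81, 6.81-fold (adjusted p 0.00118). By their means both genes were among the top 10% of all genes. Stx3, the apical syntaxin, had 0.74 and 0.61 (adjusted p 0.00623), and Stx4, the basolateral one, had 0.25 and 0.27 (adjusted p 0.0134). Stx1a, the syntaxin of neurons and endocrine cells, was the lowest at -1.94 and -1.91, 3.8-fold lower (adjusted p 0.0012). The partner Snap23, used by most cells, had -0.05 and -0.07 and did not pass (adjusted p 0.175), and Snap25, its neuronal counterpart, had -0.46 and -0.40 (adjusted p 0.00694). The syntaxins of this group therefore covered about 6 log2 units, while both SNAP-25-type proteins lay within 0.5 of 0.

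The VAMPs were higher for 5 of 7 (71.4%, against 32.9% of all genes) and lower for 2 (28.6%, against 49.7%), with a median of 0.36. By the fixed fold 2 were higher (28.6%, against 16.5% of all genes) and 1 lower (14.3%, against 15.8%). Vamp8, also called endobrevin, a VAMP of endosomes and of granules in exocrine cells, platelets and mast cells, had 2.75 and 2.60, 6.39-fold (adjusted p 0.00137). Vamp5, a VAMP of muscle and endothelium, had 1.43 and 1.38, 2.65-fold (adjusted p 0.00152), and the part of the endothelial markers, higher for 8 of 8, in this ratio was not tested. Vamp1, or synaptobrevin 1, known from nerve terminals, had -2.47 and -2.40, 5.41-fold lower (adjusted p 0.00118), with probes at -3.86 and -1.01. Its close relatives Vamp2 and Vamp3, which serve regulated and constitutive fusion at the surface, lay close together, Vamp2 with 0.38 and 0.33 and Vamp3 with 0.16 and 0.13. Vamp1 was thus over 2 log2 units below both in each array, and both of its probes lay below all 3 probes of Vamp2, which ran from -0.19 to 1.07, and below the probe of Vamp3. Vamp4, of the trans-Golgi network, had 0.53 and 0.58, a mean over 6 probes from -0.02 to 1.28, and the lysosomal Vamp7 had -0.16 and -0.18, a call lost on centring, where its sign turned (0.05).

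SNAREs of endosomes, Golgi and endoplasmic reticulum stayed within 2-fold for 8 of 9 genes. The fixed fold thus took 11.1% of the group, against 32.3% of all genes, so most genes of the table also stayed within 2-fold. By limma 3 were higher, 3 lower and 3 did not pass. Each direction held 33.3% of the group, against 32.9% higher and 49.7% lower among all genes. The higher ones were the endosomal syntaxins Stx8 (0.77 and 0.80, adjusted p 0.00236), Stx12 at 0.63 ± 0.02 and Stx7 at 0.60 ± 0.02. The lower ones were Stx17, the syntaxin of autophagosome fusion, with -1.61 and -1.38 (adjusted p 0.00365), the Golgi syntaxin Stx5 at -0.82 ± 0.02 and Stx6 of the trans-Golgi network at -0.76 ± 0.04. Snap29 (0.13 ± 0.03), Stx18 (-0.15 ± 0.06) and Stx16 (-0.15 ± 0.22) did not pass. Within this group the 3 genes called higher act on endosomes, and 2 of the 3 called lower act at the Golgi.

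Synaptotagmins were lower for 10 of 16 and higher for 2, and 4 did not pass, with a median of -0.54. On centring 7 were lower and 4 higher, so the balance of the family rests in part on the zero point, and the 62.5% called lower stand against 49.7% of all genes. The higher genes were Syt12, a synaptotagmin that does not bind calcium, with 1.24 and 1.31 (adjusted p 0.00172), and Syt5 at 1.23 ± 0.02. Syt17, also a form without calcium binding, had -1.62 and -1.68, 3.14-fold lower (adjusted p 0.0014), and Syt11, a brain-enriched form, had -1.61 and -1.32 (adjusted p 0.00515). Of the fast calcium sensors of synapses, Syt1 had 0.36 and 0.07 and did not pass, while Syt2 and Syt9 were lower, at -0.86 ± 0.21 and -0.71 ± 0.08. Syt7, the sensor of slow release and lysosome exocytosis, had 0.36 and 0.94 and did not pass (adjusted p 0.0751). The lower calls Syt8, Syt6, Syt15, Syt10, Syt4 and Syt16 lay between -0.91 and -0.27, and those of Syt10, Syt4 and Syt16 were lost on centring. Syt3 at -0.33 ± 0.21 did not pass. Syt13 had 0.09 and -1.93, values of opposite sign, and did not pass (adjusted p 0.305). Of 15 measured markers of neuroendocrine cells and neurons, 5 were higher and 8 lower in lung, between -4.95 and 2.41, with Calca and Chgb the highest and Uchl1 the lowest, and their part in the ratios of Stx1a, Snap25 and the synaptotagmins was not tested.

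The synaptotagmin-like genes, which encode effectors that tie Rab27 on granules to the plasma membrane, included the second highest member. Of 4 measured, 3 were higher (75%, against 32.9% of all genes), none was called lower and 1 did not pass, with a median of 1.75, and on centring all 4 were higher. Sytl3 had 3.72 and 3.75, 13.3-fold (adjusted p 0.00117), and Sytl5 had 2.83 and 2.79, 7.02-fold (adjusted p 0.00117). Sytl4, or granuphilin, of insulin granules and other endocrine granules, had 0.70 and 0.67, 1.61-fold (adjusted p 0.00277). Sytl1 had 0.46 and 0.18 and did not pass (adjusted p 0.0789). Each of the 4 genes rests on 1 probe. Epithelial cells, T and natural killer cells, platelets and mast cells all use Rab27, most or all of their listed markers were higher in lung as given above, and the part of each in these ratios was not tested.

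Some close relatives differed widely in their ratios and others little. For scale, the quartiles of all genes lay at -0.75 and 0.57, so differences between any 2 genes were common. Rab6b lay above Rab6a by 2.64 and 2.68 log2 units in lung replicates 1 and 2, Rab38 above Rab32 by 2.12 and 2.05, Rab40b above Rab40c by 1.86 and 1.83, and Rab9a above Rab9b by 1.52 and 1.49. The probes of Rab6b ran from 0.27 to 3.55 and those of Rab9b from -1.87 to -0.24. The size of those 2 gaps therefore depends on the probe. Rab25 exceeded Rab11a by 3.17 and 3.38, and Rab27a exceeded Rab27b by 1.24 and 1.09. Other pairs had close gene values: Rab8a and Rab8b differed by 0.07 and 0.01, Rab11a and Rab11b by 0.12 and 0.07, and Vamp2 and Vamp3 by 0.23 and 0.20. The probes of Rab8a ran from -0.09 to 0.67 and those of Vamp2 from -0.19 to 1.07. For those pairs the closeness is therefore one of averages over unlike probes. Between these lay Snap23 and Snap25, with 0.41 and 0.33, Rab1a and Rab1b, with 0.45 and 0.49, and Rab2a and Rab2b, with 0.78 and 0.87. Here the probes of Rab2b ran from -2.44 to -0.61 and those of Snap23 from -0.31 to 0.26, so these gaps depend on the probe too. These are differences of ratios between lung and mix1, compared as a description without a test, and say nothing about which relative was more abundant.

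**Figure D3:**
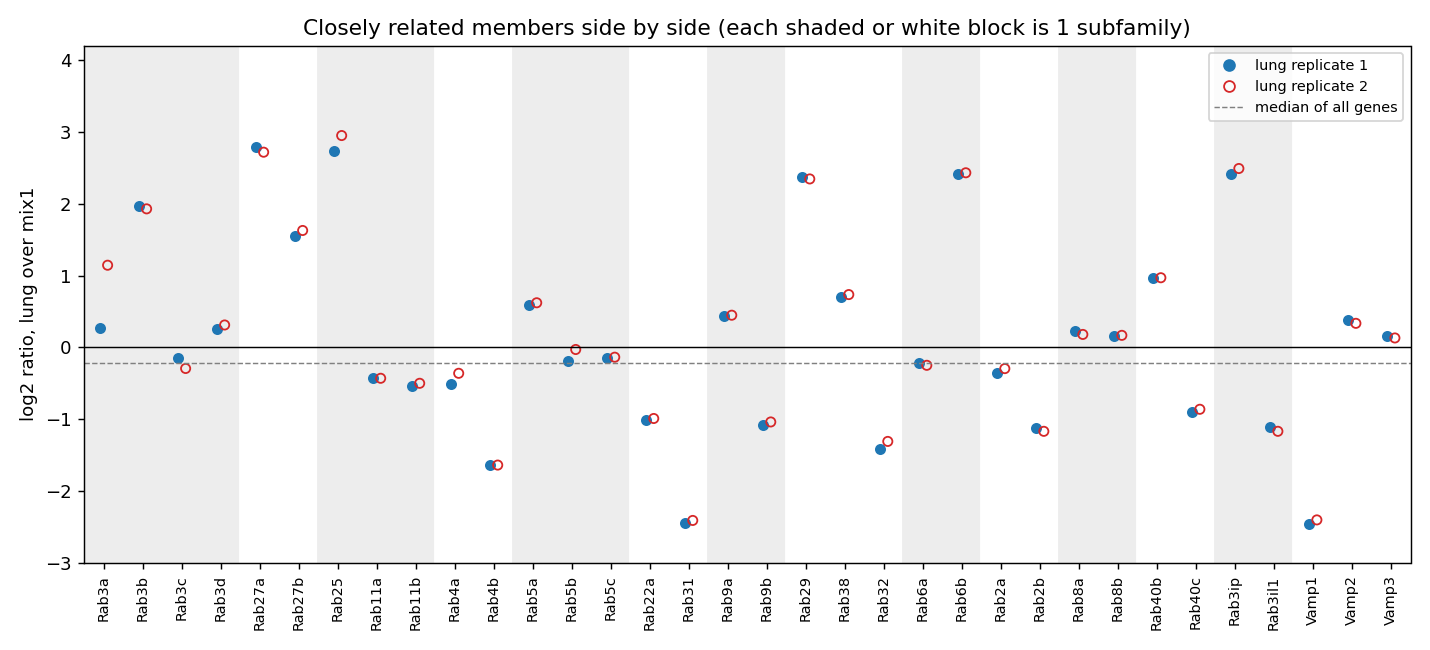
Log2 ratio of lung over mix1 (vertical axis) for related members placed side by side in blocks, in lung replicate 1 (filled) and replicate 2 (open), with a dashed line at the median of all genes. Rab6b, Rab25, Rab38 and Rab40b stand apart from their relatives in both arrays, while the gene values of Rab8a and Rab8b almost coincide.

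The arrays gave members close values, while the probes of a gene were often spread. The median SD of a member between arrays was 0.031, and 103 of 105 members had the same sign in both. The probes of the 36 members with several probes had a median range of 0.65 log2 units, 13 members had probes at least 2-fold apart and 12 had probes of different sign. An SD of 2 arrays and a range over up to 6 probes are unlike measures on unlike sets of genes, so their sizes cannot be compared directly. No member had one probe 2-fold above 0 and another 2-fold below it. Calls for Rab3gap2, Rab10, Rab5c, Rab3d, Vamp4, Vamp2, Rab14, Rab8a and Syt4, all with probe means on both sides of 0, are therefore calls on an average of unlike probes. The probes of Rab19, Rab6b, Vamp1, Rab2b and Rab9b kept 1 sign, but had ranges between 1.63 and 3.53, so the size of those ratios is uncertain.

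**Figure D4:**
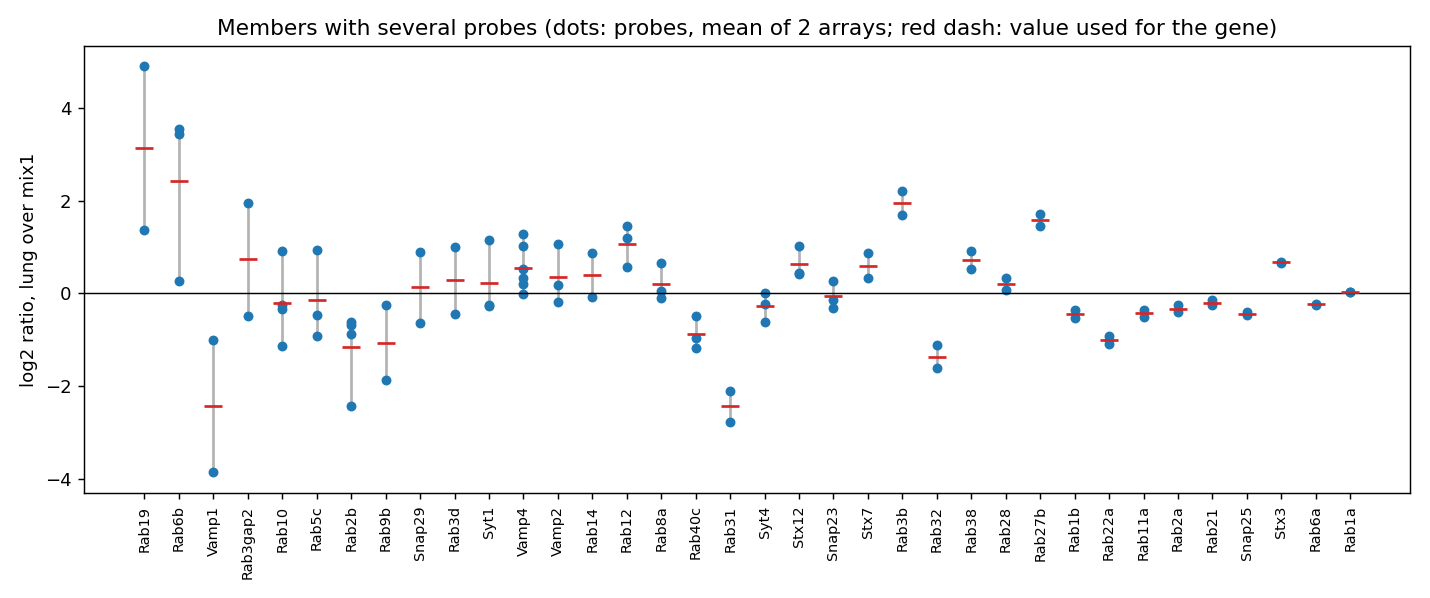
Log2 ratio of lung over mix1 (vertical axis) of each probe, as the mean of 2 arrays, for the 36 members with several probes, ordered by range, with the gene value as a red dash. Rab19 and Rab6b have probes over 3 log2 units apart, whereas the probes of Stx3, Rab6a and Rab1a almost coincide.

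Other genes of membrane traffic, taken from lists of Rab partners and fusion factors comprised 115 measured genes. Of these, 42 were higher (36.5%), 46 lower (40%) and 27 did not pass, against 32.9% and 49.7% of all genes, with a median of -0.03. By the fixed fold 23.5% differed in either direction, against 32.3% of all genes. The list of 35 Rab effectors was drawn broadly and also holds Cav1, Unc13a, Unc13b and Unc13c. Of these 35 genes, 14 were higher (40%, against 32.9% of all genes) and 11 lower (31.4%, against 49.7%). Rph3al, or Noc2, an effector of Rab3 and Rab27 in secretory cells, had 6.76 and 6.70 (adjusted p 0.00117), above every member. Myo5b, the myosin motor of Rab11 and Rab25 vesicles, had 3.90 and 4.12 (adjusted p 0.00133). Effectors of the Rab27 pathway beyond the rule, given after their values were seen, were spread widely. Unc13d, which primes granules in leukocytes, had 3.38 and 3.33, Mlph, which links granules to myosin, had 3.15 and 2.96, and Myrip, another such linker, had 0.83 and 0.90. Exph5 had -0.13 and 1.02 and did not pass (adjusted p 0.368), and Myo5a, the myosin that Mlph binds, was lower at -0.90 and -0.93. The lowest effectors were Micall2, a partner of Rab13, with -2.28 and -2.30, and Bicd1, the dynein adaptor of Rab6, with -1.99 and -1.90. Rab13 itself was also lower, as given above. Among 30 genes of the Rab cycle, 15 were higher (50%, against 32.9% of all genes) and 9 lower (30%, against 49.7%). The DENN-domain exchange factor Dennd2d had 5.18 and 4.43, and the Rab5 exchange factor Rin2 had 1.83 and 1.76. Tbc1d7 had -2.14 and -1.98, and the Rab7 inactivator Tbc1d2 had -1.42 and -1.42.

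Of 11 SNAREs outside the family names, 10 were lower (90.9%, against 49.7% of all genes) and 1 higher, with a median of -0.85, and these counts of calls were the same relative to the median gene. By the fixed fold 4 were lower (15.8% of all genes were) and none higher, but relative to the median gene 2 were lower and 1, Use1, higher. Ykt6, a SNARE of the early secretory pathway, had -2.18 and -2.09 (adjusted p 0.00134), and Vti1a, of the trans-Golgi network, had -1.42 and -1.37. Use1 was the exception with 0.91 and 0.85, and Snap47 was the next highest with -0.43 and -0.42. The list of Sec1/Munc18 proteins, complexins and components of SNARE disassembly also holds Stxbp4, Stxbp5 and Stxbp5l, which bind syntaxin but belong to none of these classes. Of its 17 genes, 10 were lower (58.8%, against 49.7% of all genes) and 3 higher (17.6%, against 32.9%). Stxbp4 and Stxbp5l were among the lower calls. By the fixed fold 1 was lower (5.88%, against 15.8% of all genes) and none higher. Relative to the median gene 8 were lower and 5 higher. Nsf, the ATPase that takes SNARE complexes apart, had -0.91 and -1.03 (adjusted p 0.00354), and Scfd2 had -2.17 and -2.06. Stxbp3, the partner of Stx4, had 0.87 and 0.90, and Stxbp2, the partner of Stx11 and Stx3, had 0.25 and 0.23. The exocyst, which tethers vesicles at the surface, had 5 of 10 higher (50%, against 32.9% of all genes) and 3 lower (30%, against 49.7%). Exoc6 had 2.65 and 2.76 and Exoc3l1 3.13 and 2.44, against -0.66 and -0.69 for Exoc3 and -0.46 and -0.37 for Exoc8. Of 12 other C2-domain proteins, 4 were higher (33.3%) and 3 lower (25%). The granule priming factor Cadps2 lay at 3.19 ± 0.28, Esyt3 at 2.29 and 2.23, the membrane repair protein dysferlin (Dysf) at -2.19 and -2.18 and Fer1l4 at -1.65 and -1.50.

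**Figure D5:**
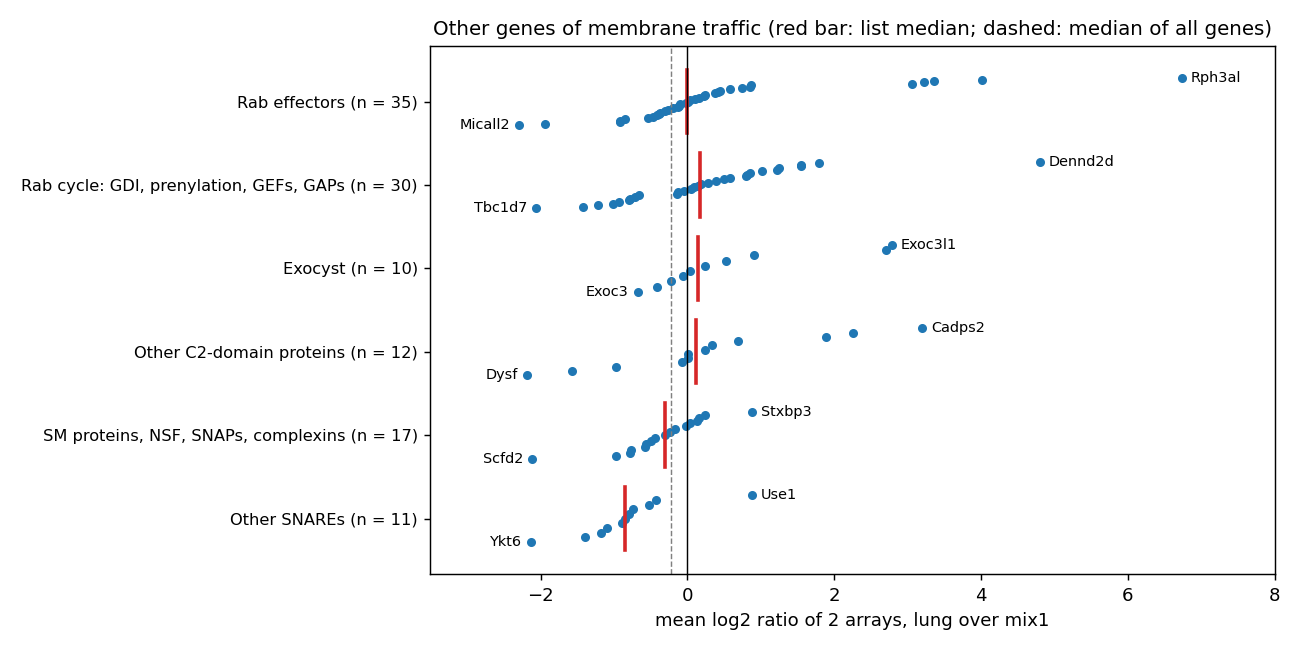
Mean log2 ratio of lung over mix1 (horizontal axis) of each measured gene in 6 lists of other trafficking genes, with the list median as a red bar and the median of all genes as a dashed line. The other SNAREs lie below 0 except Use1, with a median of -0.85, and Rph3al and Dennd2d stand furthest to the right.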

How the data were processed

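Per the labels' protocols, total RNA of cell pellets was isolated with TRIzol and cleaned up with RNeasy columns. Agilent Feature Extraction is named in the submitters' processing notes, and no source used here gives the background correction or the dye normalization. The authors' deposited values, 1 per probe and array, were taken as log2 ratios: the base is not stated, but the range from -11.74 to 9.09 is too wide for base 10 on a scanner of this type. What the values were centred on stays unknown; the probe medians were -0.16 and -0.21. Of 40012 probes, 20417 carried 1 gene symbol in the platform annotation and 19595 have no name here. RefSeq's table was used to update symbols, which renamed Rab1 as Rab1a and Rab7l1 as Rab29.

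Probes of a gene were averaged, and all 15611 genes were fitted in limma 3.58.1 (R 4.3.3) against 0 with eBayes, with 1 residual and 1.28 prior degrees of freedom. In simulated data for lung against mix1, over 15611 genes, only 100 genes were changed by 1 log2 unit, 50 by 2 and 50 by 4. The fit called 2%, 74% and 92% of these in that order, and 6.59% of its 91 calls were unchanged genes. On the arrays, by contrast, 82.7% of all genes were called. Whether the shares from simulated data hold for the reported calls was not tested.

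Genes were named by rule: the 12 highest and 12 lowest called members with 1 sign in both arrays, the extremes of each role group, all secretory Rabs, VAMPs, plasma membrane Q-SNAREs and synaptotagmin-like genes, the 2 highest and 2 lowest of each partner list, and the 6 lung genes. The remaining members are given to account for each one, and values of members and markers beyond the rule were picked after they were seen. Members and lists were chosen with earlier results of these data known.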

Additional observations from a re-analysis of the deposited data

How the results depend on the processing

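Of the called genes named by rule, only Vamp7 turned its direction under an alternative run: at -0.17 as deposited, it was 0.05 on centring and no longer past the threshold. The 76 genes named by rule all stayed on the same side of the threshold under scaling between arrays, robust eBayes, the median probe and the annotation's own symbols, and all kept their direction with either array left out; centring ended 2 calls (Vamp7 and Exoc8) and added 2 (Rab3a and Sytl1), the stricter threshold of 0.01 ended 5 and treat ended 22. The members' median, 0.02, lies too near 0 to have a settled sign: it was 0.24 on centring, -0.11 with the median probe, and between 0.03 and 0.09 with an array left out.

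The counts that follow are those that moved by more than 1.5 times; others held, such as 3 secretory Rabs, 2 synaptotagmins and 2 synaptotagmin-like genes higher and 2 C2-domain genes lower under treat. Treat, by its construction, called fewer genes: 17 members higher and 11 lower, against 25.8% of all genes in either direction. Its shares of all genes by direction were not counted, and group sizes are those given above. It called 8 of the 55 Rab GTPases higher and 6 lower, and 4 of the 23 SNAREs higher and 3 lower. Among the 20 synaptotagmins and synaptotagmin-like genes it called 1 lower. By role it called 0 secretory Rabs lower, 2 recycling Rabs higher and 2 lower, 0 early endosome Rabs higher and 1 lower, 1 late endosomal Rab higher and 1 lower, 2 Golgi Rabs higher and 2 lower, 0 other Rabs in either direction, 1 Rab regulator higher and 1 lower, 2 plasma membrane Q-SNAREs higher and 1 lower, 2 VAMPs higher and 1 lower, 0 inner SNAREs higher and 1 lower, and 1 synaptotagmin lower. Of the partner genes it called 14 higher and 11 lower: 0 other SNAREs higher and 3 lower, 0 fusion factors higher and 1 lower, 5 Rab cycle genes higher and 3 lower, 5 effectors higher and 2 lower, 2 exocyst genes higher and 0 lower, and 2 C2-domain genes higher.

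At a threshold of 0.01, 3 recycling Rabs were higher, 1 early endosome Rab higher and 2 lower, 3 Golgi Rabs higher and 5 lower, 1 VAMP lower, 6 synaptotagmins lower (6 with the synaptotagmin-like genes), 1 fusion factor higher, 7 effectors lower and 2 C2-domain genes higher. Centring gave 2 early endosome Rabs, 4 Golgi Rabs and 1 VAMP lower, 4 synaptotagmins higher (8 with the synaptotagmin-like genes), 5 fusion factors higher, 7 effectors and 1 exocyst gene lower and 8 C2-domain genes higher. On centring 40.4% of all genes were called higher and 37.9% lower. The shares of all genes at 0.01 were not counted, so the counts at that threshold have no background beside them.

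No paired analysis was possible because the lung samples form 1 group against 1 control RNA. With 1 array left there is no residual degree of freedom, so those are values without a test. The planned filter on values at 0 or at a repeated end found no such value and was not run; background correction, a filter on dim probes and slide blocks need scanner values, which were not used here, so dim genes could not be told from bright ones.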
